A study of Mus musculus with 6 samples.

Results

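Cytosolic ribosomal protein genes encode the proteins of the ribosomes that translate nuclear mRNAs. They were picked from the deposited table by symbol (Rpl or Rps with a number, with Rplp0, Rplp1, Rplp2 and Rpsa), leaving out pseudogene names and the Rps6k kinases. The rule matched 81 symbols. Of these, 5 belong to near-copies of another ribosomal protein gene and were set apart, and 2 of the other 76, Rpl30 and Rps27, lay under a mean of 1 RPKM (reads per kilobase of transcript, scaled to the size of the library). The remaining 74 genes are described here, 44 of the large subunit, with the 3 genes of its P stalk, and 30 of the small subunit. The table held 18303 genes, and 11939 of them, these 74 included, had a mean of at least 1 RPKM and were tested.

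The RNA came from mouse embryonic fibroblasts of the strain CBA/CaJ X C57BL/6J on day 2 of reprogramming in iCD1 medium, transfected with short hairpin RNAs (shRNAs), with poly(A) selection. The study asked what inhibition of the CDP-ethanolamine pathway, which makes the membrane lipid phosphatidylethanolamine, does to these cells. The control group, with an shRNA labelled shLuc, held 2 libraries. The other 4 groups had a single library. They comprise shEtnk1/2, named for the ethanolamine kinases, shPcyt2, named for the enzyme that acts after them, Etn-deprived, with shLuc in medium lacking ethanolamine (Etn), and shPebp1, named for a protein that binds phosphatidylethanolamine. The labels do not say which reprogramming factors the cells carried, and shPebp1 combined with Etn removal, which the series text mentions, was not analysed here.

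Ribosomal proteins are made in near-equal numbers for each ribosome, and their mRNAs are among the most abundant and the shortest in growing cells. Most of these mRNAs start with a C followed by a run of pyrimidines, the terminal oligopyrimidine (TOP) tract, through which mTOR signalling and the RNA-binding protein LARP1 set how well they are translated and how long they last. The P stalk, formed by Rplp0, Rplp1 and Rplp2, recruits the elongation factors to the ribosome.

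Between 18467583 and 20020465 reads per library fell in genes. Fibroblast markers were high throughout, with a summed level of 9920 to 13520 RPKM over 10 genes, highest in shEtnk1/2. Summed macrophage markers lay at 47.0 to 61.9 RPKM, neural ones at 80.8 to 114.7, endothelial ones at 21.5 to 25.4, muscle ones at 1.48 to 2.11, keratinocyte ones at 0.987 to 2.33 and erythroid ones at 0 to 0.083 RPKM. The library labelled shLuc replicate 2 went against its label in Pebp1, with 100.7 RPKM, where shLuc replicate 1 had 250.4 and shPebp1 99.6. No treated group had a replicate. Adjusted p-values are from limma with Benjamini-Hochberg correction across the 11939 genes, and rest on the spread between the 2 shLuc libraries, which the labels do not say were separate cultures. All comparisons with shLuc share those libraries. Whether their spread also holds a difference tied to Pebp1 was not tested. In bulk RNA, fewer cells of a type and less RNA per cell cannot be told apart, and RPKM gives a gene's part of a library and not its amount per cell.

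The 74 genes together took 4.85% (Wilson 95% interval 4.84 to 4.86) of the reads in shLuc replicate 1 and 4.67% (4.66 to 4.68) in the library labelled shLuc replicate 2. In shPcyt2 they took 4.99%, in shPebp1 4.71%, in shEtnk1/2 4.42% and in the Etn-deprived library 4.23% (4.22 to 4.24). The intervals cover counting error only. The Etn-deprived and shEtnk1/2 libraries thus lay below both libraries labelled shLuc, shPcyt2 lay above both, and shPebp1 lay between them. Reads of the large subunit per read of the small subunit numbered 1.38 and 1.37 in shLuc, 1.39 in shPcyt2, 1.35 in shPebp1, 1.33 in shEtnk1/2 and 1.29 in the Etn-deprived library. RPKM divides a gene's reads by the same length in every library, so it does not remove a length trend that differs between libraries. On that scale the genes took 14.8% and 14.3% of the summed level in shLuc and 13.2% in the Etn-deprived library.

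**Figure D1:**
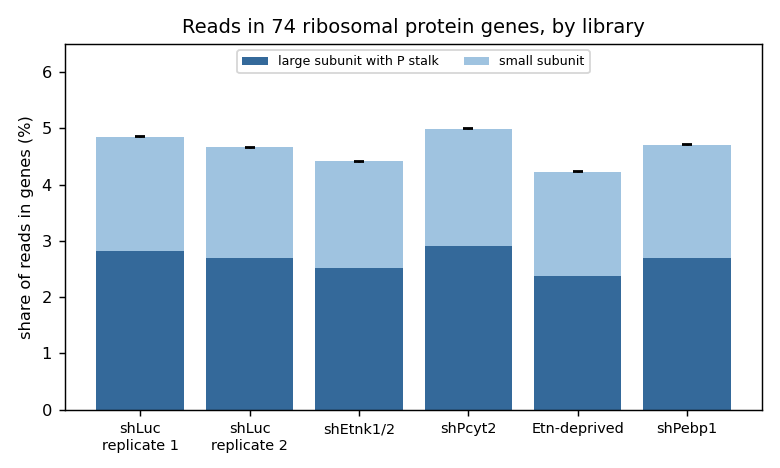
Share of the reads in genes taken by the 74 ribosomal protein genes (y axis, percent) in each of the 6 libraries, split into large and small subunit, with Wilson 95% intervals on the total. The Etn-deprived library is lowest at 4.23% and shPcyt2 highest at 4.99%.

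Levels per length differed widely between members. Rps12 had the highest mean over the 6 libraries, 1935 RPKM, followed by Rplp0 (1846), Rps26 (1483), Rps2 (1479) and Rps3a1 (1350 RPKM). The median member had 733 RPKM. At the low end stood Rpl34 with 1.16 RPKM, the only member near the filter, then Rps15a (92.1), Rpl22 (92.7), Rps29 (147) and Rpl37 (193 RPKM). The transcript length behind the RPKM of Rps15a was 5171 nt, the longest of all members, so its low level per length depends on that gene model.

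The single Etn-deprived library held lower levels of many ribosomal protein mRNAs than the libraries labelled shLuc. Other short genes were lower there too, as described below. In the Etn-deprived library 62 of the 74 genes lay below both shLuc libraries (83.8%, where 41.9% of all genes did) and 6 above both. The median log2 difference of the members from the shLuc mean was -0.21, and that of all genes tested was -0.01, on the log2(RPKM + 1) scale used throughout. In each comparison of 1 treated library with shLuc the median SE was 0.06 for the members and 0.107 for all genes. Smaller differences could thus be called in the members, so shares called do not compare sizes of difference. Limma called 31 members lower and 0 higher, in a comparison in which it called 3.22% of all genes lower. An unadjusted p under 0.05 was reached by 45, beside 2375 of all 11939 genes. The Etn-deprived library held the lowest value of all 6 libraries for 51 members, and the highest for 4. This count was not made over all genes. In the same library 8 of 10 fibroblast markers were higher than the shLuc mean (median 0.10; limma called 0, with 2 at an unadjusted p under 0.05). All 4 neural markers tested were lower (median -0.16; 0 called, with 1 at an unadjusted p under 0.05). The part of these in the result was not tested.

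Rpl28, which encodes a protein of the large subunit (GRCm38.p6 chromosome 7, 4792965 to 4794547), showed the largest difference of the members. It had 1104 and 1099 RPKM in shLuc, 1118 in shPcyt2, 987 in shPebp1, 860 in shEtnk1/2 and 585 in the Etn-deprived library. The libraries labelled shLuc lay close together, and the Etn-deprived value was 53.1% of their mean (log2 difference -0.91, SE 0.06, limma adjusted p = 6.67e-05). It was also the one member that limma called against every other library. Against shEtnk1/2 the log2 difference was -0.55 (adjusted p = 0.00495), against shPebp1 -0.75 (adjusted p = 0.000894) and against shPcyt2 -0.93 (adjusted p = 8.71e-05).

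Next came Rpl35, which sits at the exit of the tunnel through which the growing chain leaves. It had 1020 and 907 RPKM in shLuc and 640 in the Etn-deprived library, a fall of 0.59 (SE 0.08, adjusted p = 0.00634). Its other libraries lay between 789 (shEtnk1/2) and 1042 RPKM (shPcyt2), so the Etn-deprived value stood clear below all of them. Rpl11, which can bind and inhibit Mdm2 when ribosome assembly fails, had 766 and 757 RPKM in shLuc, 646 in shEtnk1/2, 815 in shPcyt2, 700 in shPebp1 and 519 in the Etn-deprived library (-0.55, SE 0.06, adjusted p = 0.000977). Rpl38, known for its part in the translation of Hox mRNAs in the embryo, had 289 and 272 RPKM in shLuc, 236 in shEtnk1/2, 280 in shPcyt2, 280 in shPebp1 and 191 in the Etn-deprived library (-0.55, SE 0.07, adjusted p = 0.002). Outside the P stalk, Rpl36a (-0.41) and Rpl13 (-0.41) followed in the large subunit.

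In the small subunit the furthest down was Rps16 (chromosome 7, 28350689 to 28352698), at 913 and 883 RPKM in shLuc, 745 in shEtnk1/2, 949 in shPcyt2, 835 in shPebp1 and 632 in the Etn-deprived library (-0.51, SE 0.06, adjusted p = 0.00172). Again the Etn-deprived value lay below all other libraries. Rps24, a gene mutated in Diamond-Blackfan anaemia, had 809 and 772 RPKM in shLuc against 585 (-0.43, adjusted p = 0.00415), and Rps13 had 477 and 464 against 354 (-0.41, adjusted p = 0.00604). The large subunit had 21 of its 44 genes called lower, with a median of -0.25, and the small subunit 10 of 30, with a median of -0.11. The difference between the subunits was not tested.

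**Figure D2:**
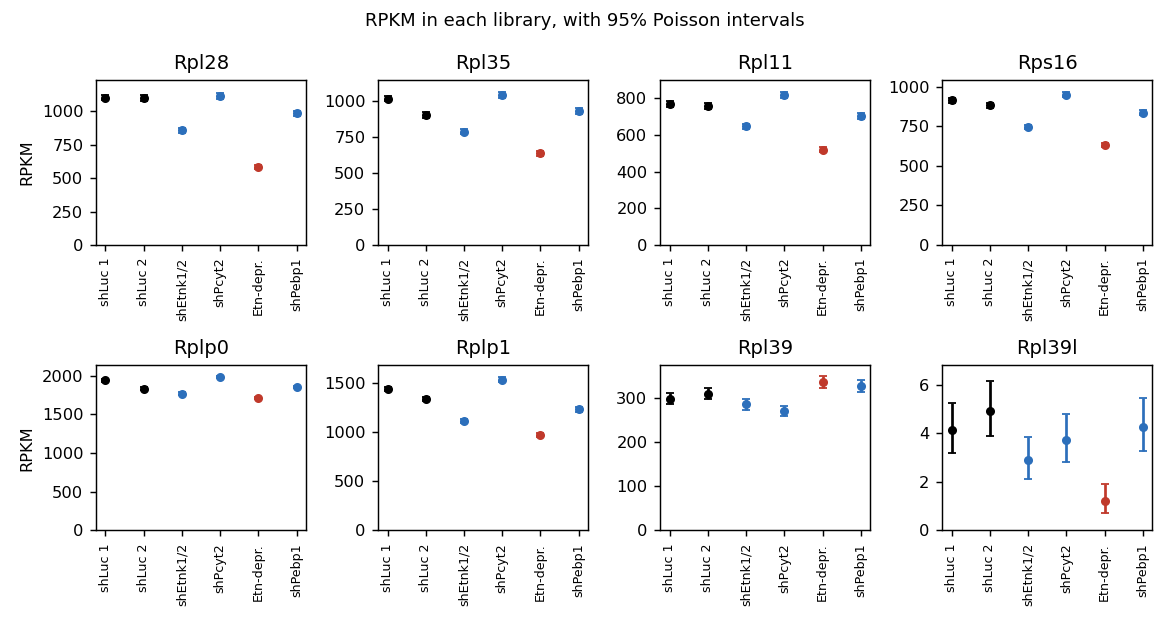
RPKM (y axis, from 0) of 8 genes in the 6 libraries, with 95% Poisson intervals from the recovered reads; black is shLuc, red the Etn-deprived library and blue the other treatments. Rpl28, Rpl35, Rpl11, Rps16 and Rplp1 are lowest in the Etn-deprived library, Rpl39 is highest there, and the near-copy Rpl39l falls to 1.20 RPKM.

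The 3 genes of the P stalk did not move by the same amount. Rplp1 had 1439 and 1339 RPKM in shLuc, 1117 in shEtnk1/2, 1532 in shPcyt2, 1233 in shPebp1 and 968 in the Etn-deprived library (-0.52, SE 0.06, adjusted p = 0.00218). Rplp2 had 809 and 784 RPKM in shLuc and fell to a like level in shEtnk1/2 (629) and in the Etn-deprived library (621; -0.36, adjusted p = 0.00935). Rplp0, which anchors the others on the ribosome and often serves as a reference gene, had 1936 and 1830 RPKM in shLuc, 1767 in shEtnk1/2, 1982 in shPcyt2, 1851 in shPebp1 and 1710 in the Etn-deprived library. That difference was -0.14 (SE 0.06) and did not pass (adjusted p = 0.211).

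A group of members was not lower in the Etn-deprived library. Rpl39 (chromosome X, 37082518 to 37085222), whose protein also lines the exit tunnel, had 299 and 310 RPKM in shLuc and 336 in the Etn-deprived library (0.14, SE 0.06, adjusted p = 0.242). Rpl10, Rpl3 and Rpl4 lay at 0.09, 0.01 and 0.00, and in the small subunit Rps15a, Rps6 and Rps4x lay at 0.14, 0.05 and 0.03. Rps6, the protein that S6 kinase phosphorylates, had 845 and 790 RPKM in shLuc and 849 in the Etn-deprived library, so the latter was close to the higher of the pair. None of these passed the test. Rpl34 was at 0.20, on 9 to 21 reads per library, and its shLuc libraries themselves were at 1.51 and 0.74 RPKM.

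**Figure D3:**
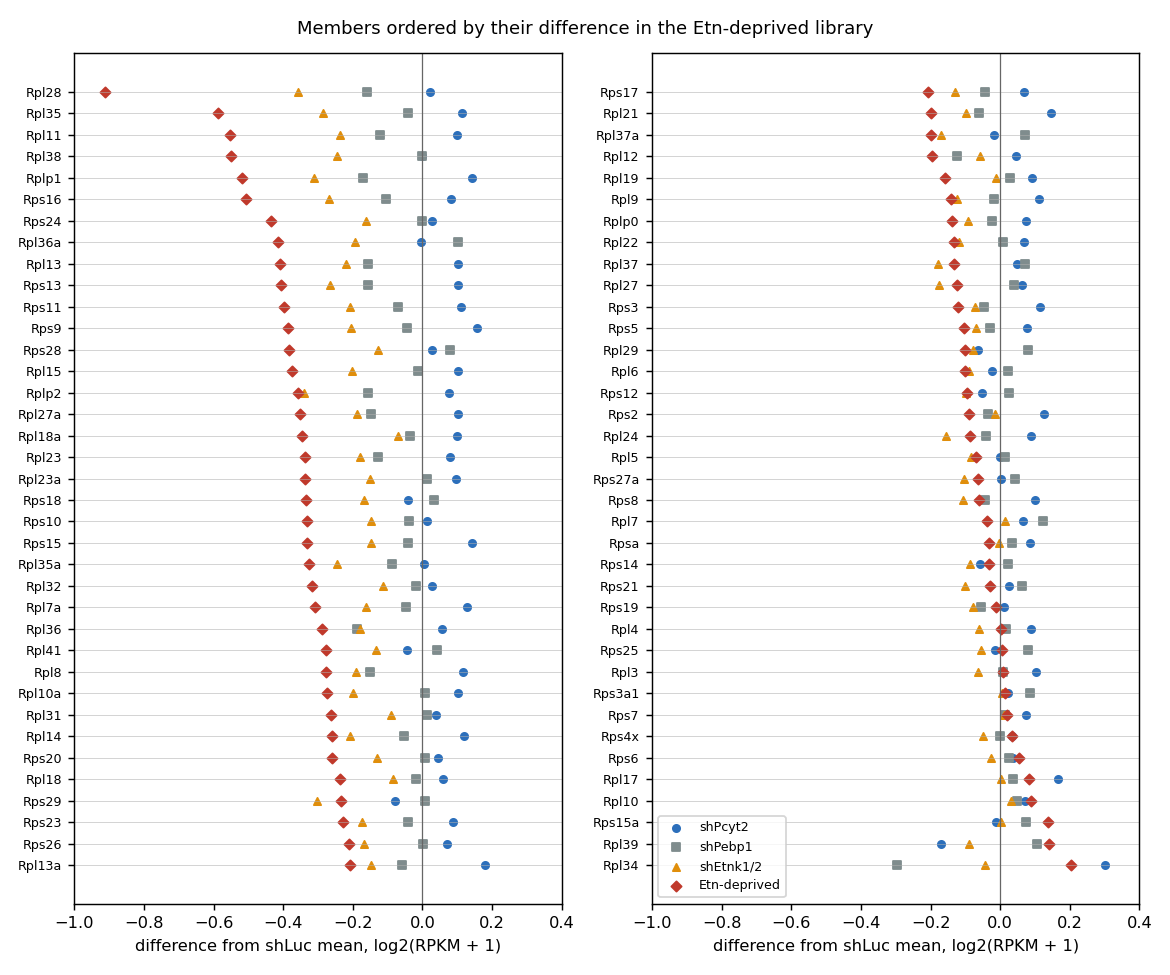
Difference of each of the 74 members from the shLuc mean (x axis, log2(RPKM + 1)) in 4 libraries, ordered by the Etn-deprived value. The order runs from Rpl28 at -0.91 to Rpl34 at 0.20, and most shEtnk1/2 values lie on the same side of 0 as the Etn-deprived ones while most shPcyt2 values lie above 0.

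Transcript length moved with these differences. The 31 members called lower had a median length of 598 nt and the 43 others 801 nt, beside 2926 nt for all genes tested. Across the 74 members, which share their libraries, Spearman's rho between length and the Etn-deprived difference was 0.38, and with GC content it was -0.18. Across 11862 genes with both values the coefficients were 0.26 and -0.50. Other short genes were lower in this library too. Members of 500 to 700 nt had a median of -0.26 (n = 21) and the 204 other genes of that length -0.26, and at 700 to 1000 nt the medians were -0.12 (n = 21) and -0.13 (n = 472). Up to 500 nt, members were at -0.32 (n = 14) and 206 other genes at -0.22, and at 1000 to 2000 nt members were at -0.14 (n = 15) and 2548 other genes at -0.07. Of the 35 members of up to 700 nt, 20 were called lower, as were 101 of the 410 other genes.

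With the length trend over all genes subtracted, the median of the members was -0.02, and 39 of 74 lay below 0. Limma then called Rpl28 (-0.66) and Rpl11 (-0.33) lower and Rpl39 (0.42) higher. With length and GC content subtracted together it called Rpl28 (-0.62) and Rpl15 (-0.46). Leaving out either shLuc library gave a median of -0.17 without replicate 1 and -0.25 without the library labelled replicate 2. These fits hold 1 shLuc library and take the spread from the treated libraries not compared. Their calls can therefore not be set beside those of the main fit. Quantile normalization gave 7 calls and a median of -0.075, and without a filter limma called 0, with 26 members at an unadjusted p under 0.05. Over all genes the calls, in either direction, fell as well. They numbered 454 in the main fit, 58 with length subtracted and 37 with length and GC content. Quantile normalization gave 197 over all genes, and the fit without a filter 0.

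**Figure D4:**
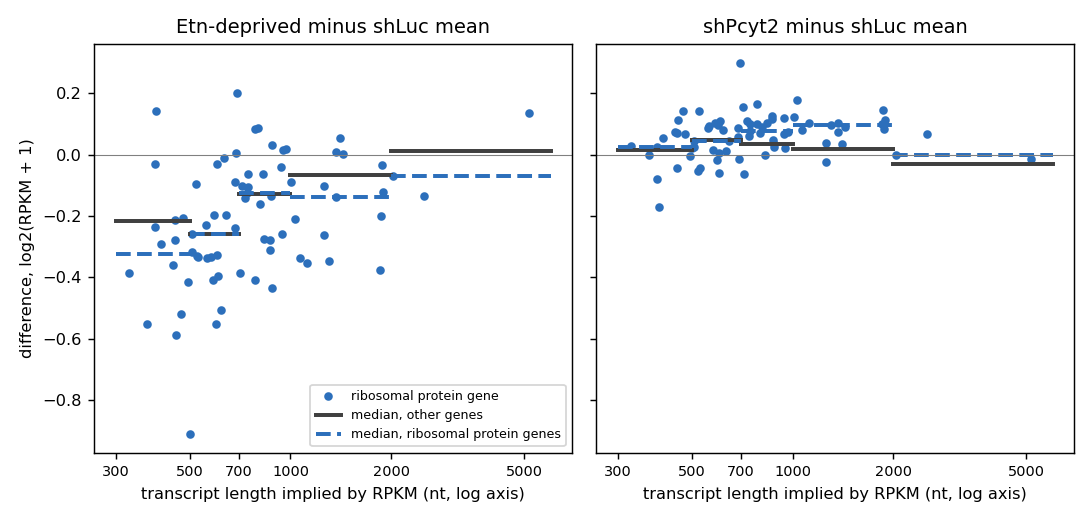
Difference from the shLuc mean (y axis, log2(RPKM + 1)) of each member against the transcript length implied by its RPKM (x axis, nt, log scale) in the Etn-deprived and shPcyt2 libraries. Dark lines are medians of other tested genes and dashed lines medians of members in the same length class. In the Etn-deprived library both lie at -0.26 for 500 to 700 nt.

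The sequences at the transcription start were read because TOP tracts begin there. RefSeq starts on GRCm38.p6 were matched for 55 of the 74 members, with 65 starts in all. A window of 30 bases, 10 before each start and 20 from it on, was searched on the sense strand for a run of at least 6 pyrimidines (C or T) and for the letters CTTTCC. The lines below give this window, 5′ to 3′, for 3 members that fell and 3 that did not, with the longest pyrimidine run in capitals.
Rpl28: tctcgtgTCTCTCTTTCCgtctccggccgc
Rpl35: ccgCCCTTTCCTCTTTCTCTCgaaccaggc
Rpl38: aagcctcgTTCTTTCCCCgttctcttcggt
Rpl39: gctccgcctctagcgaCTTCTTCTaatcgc
Rps15a: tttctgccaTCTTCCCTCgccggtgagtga
Rps6: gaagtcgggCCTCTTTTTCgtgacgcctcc
They lie at chr7:4792955-4792984 on the plus strand (Rpl28), chr2:39005112-39005141 on the minus strand (Rpl35), chr11:114668570-114668599 on the plus strand (Rpl38), chrX:37085203-37085232 on the minus strand (Rpl39), chr7:118116128-118116157 on the minus strand (Rps15a) and chr4:86857348-86857377 on the minus strand (Rps6). Each covers an annotated transcript start, at the beginning of a first exon. All 6 hold a run, whichever way the gene moved.

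A run of at least 6 pyrimidines stood in the window of 34 of the 55 members (61.8%), where 32.1% of 27025 genes had one. It stood in 17 of 24 members called lower (70.8%) and in 17 of 31 not called (54.8%). The letters CTTTCC stood in 8 members (14.5%), beside 1.52% of all genes. These were Rpl15, Rpl18, Rpl28, Rpl35, Rpl35a, Rpl38 and Rps10, all called lower, and Rpl13a, which had -0.21 and was not called. The reverse complement GGAAAG stood in 0 of 55 members and 1.51% of all genes. CTTTCC falls inside a pyrimidine run in the windows printed, so the 2 searches overlap, and it was chosen with the members' values known. These matches describe letters only.

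In shEtnk1/2 the members were also low, by less. There 63 of the 74 lay below both shLuc libraries (85.1%, beside 51.9% of all genes) and 2 above both. The median was -0.13, beside -0.06 over all genes. Limma called 6 members lower and 0 higher, against 2.37% of all genes called lower. Rpl28 (-0.36, SE 0.06, adjusted p = 0.0114), Rplp2 (-0.34, adjusted p = 0.0149), Rplp1 (-0.31, adjusted p = 0.0265), Rps16 (-0.27, adjusted p = 0.0362) and Rps13 (-0.27, adjusted p = 0.0423) were called, and all 5 were also called lower in the Etn-deprived library. The 6th, Rps29, had 163 and 152 RPKM in shLuc, 127 in shEtnk1/2 and 134 in the Etn-deprived library (-0.30, adjusted p = 0.0449, and -0.23, adjusted p = 0.0975). Markers of cell types moved in the same library. All 10 fibroblast markers lay above the mean of shLuc (median 0.32, 6 called), and of 4 neural markers tested 2 were called lower, with a median of -0.29 and the lowest summed level of the 6 libraries, 80.8 RPKM. Of 3 macrophage markers tested, 2 were higher and 1 lower (median 0.15, 1 called higher). The summed macrophage and keratinocyte levels, 61.9 and 2.33 RPKM, were the highest of the 6 libraries. The part of these markers in the members' difference was not tested. The median was -0.16 for members no longer than 700 nt and -0.17 for the 410 other genes of such length. Over all 74 members it was -0.1 without shLuc replicate 1 and -0.17 without the library labelled replicate 2. With the length trend removed the median was 0.01 and limma called 0 members, as it did without a filter. With libraries scaled to a common median ratio it called 1, and with at least 50 reads 15. Calls over all genes in these settings are not given here, so these changes cannot be tied to the members.

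The Etn-deprived and shEtnk1/2 libraries were compared directly. In this and the other comparisons between treated libraries each side is 1 library and the spread is that of the shLuc pair, so the calls compare libraries and cannot show a difference between the treatments. Of the 74 members 51 were lower in the Etn-deprived library, with a median of -0.06 (all genes 0.04), and limma called Rpl28 alone, where it called 0.477% of all genes lower. Other members that fell far against shLuc did not pass here, among them Rpl11 (-0.31, adjusted p = 0.0692), Rpl38 (-0.30, adjusted p = 0.109) and Rpl35 (-0.30, adjusted p = 0.181). Rplp2 had the same level in both, with a difference of -0.02 (SE 0.07).

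In shPcyt2 the members stood on the other side of the libraries labelled shLuc. Above both shLuc libraries were 52 of the 74 (70.3%, beside 29.0% of all genes), and 8 were below both. The median was 0.07 (all genes -0.02), and shPcyt2 held the highest of the 6 values for 47 members, a count not made over all genes. Limma called 0 members, and limma-voom on recovered reads also called 0. An unadjusted limma p under 0.05 was reached by 8, beside 713 of all 11939 genes. Over all genes limma called 0.109% in either direction. Rpl13a, which takes part in silencing of inflammatory mRNAs, had a difference of 0.18 and Rps9 0.16, while Rpl39 was furthest down at -0.17 (SE 0.06, adjusted p = 0.821). With quantile normalization the median was 0.00, and with the length trend removed it was 0.038. Up to 700 nt, members were at 0.04 and the 410 other genes at 0.03. Spearman's rho between length and the shPcyt2 difference was -0.245 across 11862 genes and 0.285 across the 74 members. The part of length in the members' difference was not tested.

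Set directly against shPcyt2, the Etn-deprived library had 32 members lower and 1 higher by limma, where 2.73% of all genes were called lower and 0.494% higher. The median was -0.26, with 0.01 over all genes. Rpl28 (-0.93), Rpl35 (-0.70, adjusted p = 0.00534), Rplp1 (-0.66, adjusted p = 0.00136) and Rpl11 (-0.65, adjusted p = 0.000809) led. Rpl39 was the one higher, at 336 RPKM against 270 (0.31, SE 0.07, adjusted p = 0.0467), and did not pass with median-ratio scaling. With the length trend removed 2 members were called lower. Calls over all genes in that setting are not given here, so this change cannot be tied to the members.

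In shPebp1 the members were near the libraries labelled shLuc. Of these, replicate 2 had Pebp1 about as low as shPebp1, so nearness to the pair cannot show what lowering Pebp1 does. Below both shLuc libraries were 29 (39.2%, beside 31.7% of all genes) and above both 19 (25.7%, beside 36.6%), with a median of -0.01 (all genes 0.01). Limma and limma-voom both called 0, and 10 had an unadjusted limma p under 0.05, beside 698 of all 11939 genes. Of all genes limma called 0.101%. The Etn-deprived library had 14 members lower than shPebp1, 8 of the large and 6 of the small subunit, where 0.988% of all genes were called lower. They were led by Rpl28 (-0.75), Rpl38 (-0.55), Rpl35 (-0.54) and Rpl36a (-0.52), and 3 were called with median-ratio scaling, 1 with the length trend removed and 23 with limma-voom. For these 3 settings calls over all genes are not given here, so the changes cannot be tied to the members.

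**Figure D5:**
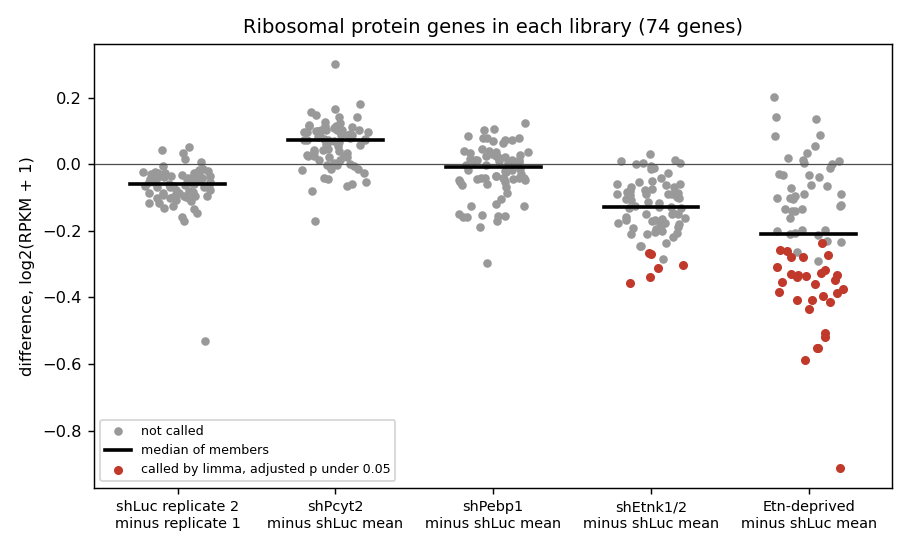
Difference of each of the 74 members (points) from the shLuc mean in the 4 treated libraries, and between the 2 shLuc libraries, on the log2(RPKM + 1) scale, with the median as a line and red points called by limma. The medians are -0.06 between the libraries labelled shLuc, 0.07 in shPcyt2, -0.01 in shPebp1, -0.13 in shEtnk1/2 and -0.21 in the Etn-deprived library.

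The 2 libraries labelled shLuc differed in these genes. The library labelled shLuc replicate 2 was lower than replicate 1 for 69 of the 74, with a median of -0.06, where the median of all genes was 0.00. That is smaller than the Etn-deprived and shEtnk1/2 medians and near the size of the shPcyt2 one.

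Taken as 1 group of 3 libraries, the pathway treatments had 61 members lower than shLuc, with a median of -0.09 (all genes -0.03). Limma and limma-voom both called 0 members, and 1 had an unadjusted limma p under 0.05, beside 724 of all 11939 genes. Of all genes limma called 0.0%. Rpl28 was at -0.42 (SE 0.27, adjusted p = 0.818), its 3 treated values lying from 585 to 1118 RPKM. With the length trend removed the median turned to 0.001, and with length and GC content to 0.003. Without shPcyt2 it was -0.17, and without the Etn-deprived library -0.04.

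Near-copies and ribosomal proteins under other names were measured beside the members. Rpl39l (chromosome 16, 10170197 to 10174911), a near-copy of Rpl39 known best from the testis, fell in the Etn-deprived library to 1.20 RPKM, from 4.13 and 4.92 in shLuc (-1.32, SE 0.16, adjusted p = 0.00223). It had 2.89 in shEtnk1/2, 3.72 in shPcyt2 and 4.27 in shPebp1, so it was lowest where Rpl39 was highest. The sources used here do not say how the authors' counting divided reads between near-identical copies. The other 5 near-copies were not called in that library and had -0.04 to -0.15. They were Rpl22l1 (101 RPKM on average), Rpl36al (222), Rpl7l1 (43.3), Rps27l (190) and Rps4l (67.6). Fau (-0.17), which encodes a protein of the small subunit, and Gnb2l1 (-0.02), whose protein binds the small subunit, were not called either.

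Genes that act with the ribosome were counted in the same way. Their calls are to be read against the 3.22% of all genes called lower in the Etn-deprived library. Their counts at an unadjusted p under 0.05 are to be read against 2375 of all 11939 genes. Of 38 genes of ribosome biogenesis, 23 were lower and 15 higher in the Etn-deprived library (median -0.03), and limma called 4 lower. They were Nop10 (-0.37, adjusted p = 0.0323) and Nhp2 (-0.36, adjusted p = 0.0401), both of the particles that guide pseudouridylation, Pes1 (-0.35, adjusted p = 0.0426), of large-subunit assembly, and Fbl (-0.33, adjusted p = 0.0352), the methylase of ribosomal RNA. The nucleolar proteins Ncl (0.04) and Npm1 (-0.02) were not called. Of 15 genes of RNA polymerase I, 0 were called (5 at an unadjusted p under 0.05; median -0.11). Of 32 initiation factors 1 was called, a share near that of all genes. This was Eif3g, with 82.3 and 81.8 RPKM in shLuc and 63.8 in the Etn-deprived library (-0.36, adjusted p = 0.0204). Of 7 elongation factors 0 were called (4 at an unadjusted p under 0.05), with Eef1a1 at 0.10 and Eef2 at -0.07. Of 19 other mRNAs known to carry a TOP tract 0 were called (6 at an unadjusted p under 0.05; median 0.03), Tpt1 at -0.05 among them. Among 15 genes of mTOR signalling and its TOP regulators, Eif4ebp1, which encodes a repressor of cap-dependent translation, fell from 40.3 and 43.7 to 31.5 RPKM (-0.40, adjusted p = 0.0268), and Mtor (-0.08) and Larp1 (-0.12) did not pass. Of 77 mitochondrial ribosomal protein genes 63 were lower and 14 higher (median -0.14), and limma called 16 lower. In shEtnk1/2 limma called 1 of the biogenesis genes, Rrs1 (-0.42, adjusted p = 0.0415), and 6 of the 77 mitochondrial ones lower, where 2.37% of all genes were called lower. By median, 3 of these lists were about as low in shEtnk1/2 as the members (-0.13, 68 of 74 lower; all genes -0.06). Biogenesis genes were at -0.13 (36 of 38 lower), RNA polymerase I at -0.15 (14 of 15) and mitochondrial ribosomal proteins at -0.17 (69 of 77). Initiation factors were at -0.07, elongation factors and other TOP mRNAs at -0.05, and mTOR signalling genes at -0.02. The differences between these lists and the members were not tested.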

How the data were processed

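The authors deposited 1 table of RPKM values per gene and library. Per the submitters' processing notes, Bowtie 0.12.2 and mm10 were used. The sources used here give no gene models, counting program or strand setting. For 18303 of 18303 genes the RPKM of the 6 libraries were whole multiples of the value of 1 read, within 1e-05 reads plus a relative 5e-09. Reads and transcript lengths were taken from these multiples, and GC content from GENCODE M21 transcripts.

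The 11939 genes whose mean reached 1 RPKM were tested on the log2(RPKM + 1) scale, on which changes of low genes come out too small, with limma 3.58.1 (R 4.3.3; trended, robust, two-sided). The model had 5 group means, and its spread rested on the shLuc pair (1 residual and 9.24 prior degrees of freedom). The pathway comparison set 3 libraries against 2 (3 residual and 6.37 prior degrees of freedom). Benjamini-Hochberg correction ran across all tested genes, with a threshold of 0.05. The scripts were tested on simulated data. Alternatives were a pseudocount of 0.1, no filter, at least 50 reads, no small RNAs, median-ratio and quantile scaling, limma-voom on the recovered reads, removal of trends in length (loess, span 0.3) or in length and GC content (mgcv 1.9.3), and leaving out libraries. The 3 alternatives that fitted trends, or scaled, without ribosomal protein genes were chosen after seeing the data.

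The members, the lists of related genes and the markers were chosen with earlier results of these data known. Genes were named by their rank in each comparison (up to 10 called in each direction, the 5 largest differences, the 5 highest and lowest levels), from a panel, and up to 3 of each related list; Rps4x, Rpl4, Rps9, Rpl18, Rpl35a, Rps10, Rpl15 and several genes of the related lists were added after their values were seen. Coordinates and start-site sequences are those of RefSeq on GRCm38.p6. An item withheld for evaluation is not reported here.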

Additional observations from a re-analysis of the deposited data

How the results depend on the processing

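The median of the members in shEtnk1/2 was 0.011 with the length trend removed, whether or not that trend was fitted without ribosomal protein genes, 0.0 with length and GC content removed in both ways, -0.061 with median-ratio scaling and -0.085 with quantile normalization. Members called lower there numbered 0 without a filter and with each of the 4 trend settings, 1 with median-ratio scaling, 2 with quantile normalization, 13 with limma-voom, 14 without small RNAs and 15 with at least 50 reads. Calls over all genes in shEtnk1/2 are not given for these settings, so the changes cannot be tied to the members. The prior degrees of freedom, estimated over all genes, were 9.24 in the main fit, 24.1 without small RNAs and 29.7 with at least 50 reads. In the Etn-deprived library 0 were called lower without a filter (26 at an unadjusted p under 0.05), 7 with quantile normalization, 2 with the length trend removed, fitted either way, and 2 with length and GC content, or 3 fitted without ribosomal protein genes. With the length trend removed, fitted either way, 1 was called higher. Over all genes, calls in either direction in that library numbered 454 in the main fit, 0 without a filter and 197 with quantile normalization. They numbered 58 and 76 with length removed, and 37 and 45 with length and GC content. The median of the members there was -0.075 with quantile normalization, -0.015 and -0.02 with length removed, and -0.031 and -0.032 with length and GC content. Limma-voom called 5 members lower than in shEtnk1/2 and 23 lower than in shPebp1, where median-ratio scaling gave 3 and length removed 1. Against shPcyt2, length removed gave 2 lower and median-ratio scaling 0 higher. For these comparisons between treated libraries, calls over all genes in the other settings are not given here. The shPcyt2 median was 0.001 with quantile normalization. The pathway median was 0.001 with length removed, fitted either way, and 0.003 and 0.004 with length and GC content. Where the values above lie away from the reported ones, the cause was not tested. Leaving out either shLuc library changed the source of spread to the treated libraries not compared, so calls there cannot be set beside the main ones. Without replicate 1 the members' median was -0.1 in shEtnk1/2 and -0.166 in the Etn-deprived library. Without the library labelled replicate 2 it was -0.166 and -0.25. Leaving out 1 library moved the pathway median between -0.173 and -0.043. By summed RPKM in place of reads, the members took 14.8% and 14.32% in shLuc, 13.68% in shEtnk1/2, 14.94% in shPcyt2, 13.16% in the Etn-deprived library and 14.38% in shPebp1. Rpl28 kept its call in the Etn-deprived library in 11 of 14 alternatives (adjusted p 6.17e-31 to 0.296), and no gene named in these alternatives reversed. No paired analysis was possible because only shLuc has 2 libraries.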

Other observations

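Canonical ribosomal protein genes with almost no reads stood beside these abundant members. Rpl30 had 5 and 0 reads in shLuc, 0 in shEtnk1/2, 3 in shPcyt2, 0 in the Etn-deprived library and 7 in shPebp1. Rps27 had 3 to 8 reads in each library, and Rpl34 had 9 to 21. Of lines with pseudogene names, Rpl14-ps1 had a mean of 17.9 RPKM and Rps19-ps3 4.24 RPKM, more than any of these 3. What sets these low values was not tested.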
